A study of Mus musculus with 12 samples.

Results

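Liver sinusoidal endothelial cells (LSECs) cultured alone were compared with cells of the mouse hepatoma line Hepa1-6 cultured alone, across every gene function that the deposited gene table covers. The comparison takes the read-count columns of both mono-cultures, which are 6 of the 12 libraries of the series. There were 3 libraries of LSECs alone and 3 of Hepa1-6 cells alone; the other 6 libraries, from co-cultures of the same cells, serve only for a check near the end. LSECs were primary cells, plated at 500000 per well in complete LSEC medium at the bottom of 12-well plates. Hepa1-6 cells were plated at 100000 per insert with 3 μm pores in DMEM with 10% fetal bovine serum. On the next day the cells were washed 3 times, and RNA was taken after 24 h in DMEM with 2% serum. The labels give a single protocol for all samples, written for the co-culture, so details that apply only to the cells kept alone are not given in the sources used here. The same holds for the strain, sex and age of the animals and for how the LSECs were isolated. Cell type and primary or line origin differ between the groups, as do plating medium and the well or insert if that protocol also held for the cells kept alone, and these cannot be told apart. Nothing states that replicates came from separate animals or cultures, so p-values measure the spread between these samples, which may be technical.

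LSECs form the porous wall of liver capillaries. They take up waste proteins and small particles from blood through scavenger receptors and degrade them in lysosomes, and they carry the vascular programme shared with other endothelium. Hepa1-6 derives from a mouse liver tumour, grows continuously in culture and keeps part of the secretory programme of fetal hepatocytes.

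Total counts were 48870698, 35991850 and 35459408 for LSECs alone, and 34983916, 43525113 and 43159040 for Hepa1-6 cells alone. Of 45777 genes in the table, 12827 had a mean of at least 1 CPM (count per 1e6 counts) in LSECs and 12310 in Hepa1-6 cells. After a filter on low counts 16411 genes were tested. A gene is called here when its adjusted p in edgeR's quasi-likelihood test is under 0.05, and 4-fold genes are called genes with at least a 4-fold difference. Of the tested genes 70.0% were called (11487 genes), with 37.2% being LSEC-high and 32.8% Hepa1-6-high. By the 4-fold rule 18.8% were higher in LSECs (3092 genes) and 15.5% in Hepa1-6 cells (2540 genes), and counts of members below are read against these shares. In 77.8% of tested genes no LSEC library overlapped a Hepa1-6 library, and the median log2 fold change of LSECs over Hepa1-6 cells was 0.09. One LSEC library, replicate 1, stood apart. Against LSEC replicates 2 and 3 its counts gave a chi-square of 269 and 299.9 for each degree of freedom, where LSEC replicates 2 and 3 gave 5.279 and pairs of Hepa1-6 libraries 3.565 to 5.843. Without it 14452 of 16747 genes were called. CPM values below are on the TMM scale of these 6 libraries. Single genes given as higher in one cell were called and had no overlap between groups unless stated. Counts of list members take called genes with or without overlap. In bulk RNA, more cells of a type and more RNA per cell cannot be told apart.

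The labelled cell types were checked against marker lists. All 20 general endothelial markers tested were at least 4-fold higher in LSECs, with a summed level of 15633 to 18183 CPM in LSECs and 47.17 to 48.57 CPM in Hepa1-6 cells. All 18 tested sinusoidal markers were called higher in LSECs, 17 of them by 4-fold, among them the scavenger receptor Stab2 at 462, 841 and 841 CPM in LSECs and 0.11, 0.244 and 0.111 CPM in Hepa1-6 cells. Of 17 tested fetal liver and hepatoma markers 4 were called for LSECs and 12 for Hepa1-6 cells. These 4, Ttr, Serpina1a, Ahsg and H19, named after their values were seen, averaged under 1 CPM in both cells, and none of them was called where genes needed 1 CPM in 3 libraries. Mature hepatocyte markers were low in both cells, at 23.33 to 28.55 CPM summed in LSECs and 12.07 to 12.85 CPM in Hepa1-6 cells. The LSEC preparation also held macrophage transcripts. All 20 Kupffer cell and macrophage markers were at 1 CPM or more in LSECs, summing to 2606 to 3877 CPM in LSECs and 16.19 to 18.54 CPM in Hepa1-6 cells. Stellate cell and fibroblast markers summed to 214.1 to 270.4 CPM in LSECs and 2204 to 2224 CPM in Hepa1-6 cells, where Dcn made up most of the sum. By gene count they went the other way, with 11 of 17 tested at least 4-fold higher in LSECs and 3 in Hepa1-6 cells, and 7 called for LSECs where genes needed 1 CPM in 3 libraries. T, NK, B and neutrophil markers were each under 10 CPM summed in every LSEC library.

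By TPM, a length-corrected scale that allows genes to be compared, the highest 4-fold LSEC genes were the ferritin chains Ftl1 (16715 ± 4184 TPM in LSECs, 2895 ± 56.3 TPM in Hepa1-6 cells) and Fth1 (15683 ± 3521 TPM in LSECs and 3208 ± 53.9 TPM in Hepa1-6 cells). Both have many processed pseudogenes, so their counts are uncertain. They were followed by B2m, the light chain of class I histocompatibility molecules (6209 ± 159 TPM in LSECs and 1250 ± 17.8 TPM in Hepa1-6 cells), and by Selenop, the selenium carrier of plasma (5882 ± 1024 TPM in LSECs and 337 ± 9.01 TPM in Hepa1-6 cells). The highest 4-fold Hepa1-6 gene that is no mitochondrial, ribosomal protein or predicted gene was the poly(A)-binding protein Pabpc1, at 574 ± 164 TPM in LSECs and 2357 ± 27.4 TPM in Hepa1-6 cells. The small actin-binding peptides were split between the cells. Tmsb4x, the X-linked thymosin, stood at 2247, 1111 and 1006 CPM in LSECs and at 0, 0 and 0.0445 CPM in Hepa1-6 cells, which is 177045 against 2 counts over the groups. Tmsb10, another thymosin, was higher in Hepa1-6 cells, at 243, 107 and 103 CPM in LSECs and 667, 619.8 and 569 CPM in Hepa1-6 cells. LSEC replicate 1 had the highest CPM of the LSEC libraries for Ftl1, Fth1 and Tmsb4x, and no library overlapped the other group.

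**Figure D1:**
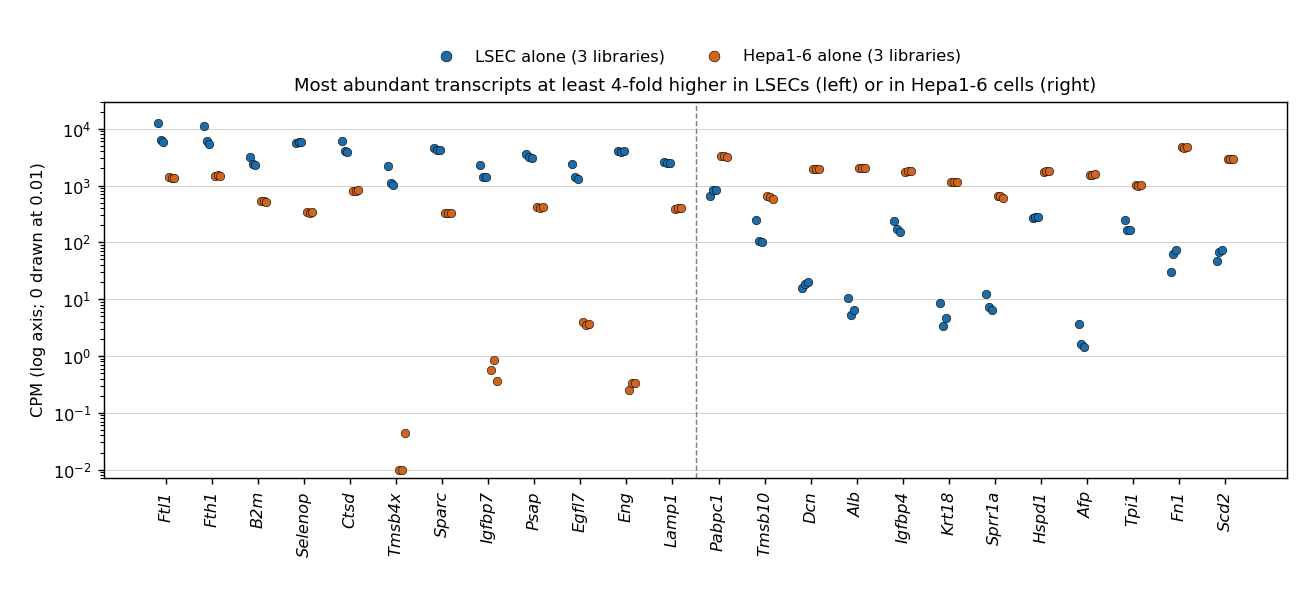
CPM (log axis) of the 12 most abundant named genes at least 4-fold higher in LSECs, left of the dashed line, and the 12 at least 4-fold higher in Hepa1-6 cells, right of it; each point is 1 library and a value of 0 is drawn at 0.01. The groups do not overlap for any of the 24 genes, and Tmsb4x, Eng and Igfbp7 lie below 1 CPM in Hepa1-6 cells.

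Among genes with at least 3 counts in every library of the other cell, the 6 largest folds toward LSECs belonged to Eng, Stab2, Cd93, Pecam1, Igfbp7 and Lyz2, the last of which is also on the macrophage list. Eng, a co-receptor for transforming growth factor beta, was at 3990 ± 43.4 CPM in LSECs and 0.304 ± 0.0495 CPM in Hepa1-6 cells (log2 fold change 13.65 ± 0.20 (SE), edgeR adjusted p = 1.59e-06, n = 3 each). Cd93, a surface lectin-like receptor, was at 1152 ± 342 CPM in LSECs and 0.305 ± 0.164 CPM in Hepa1-6 cells (log2 fold change 11.91 ± 0.50). The 6 largest folds toward Hepa1-6 cells belonged to Stra6, Enpp2, Rbp4, Afp, Tspan8 and Dnajc22. Stra6, the cell-surface receptor for retinol-binding protein, was at 0.217, 0.516 and 0.175 CPM in LSECs and 715, 696 and 699 CPM in Hepa1-6 cells (log2 fold change -11.19 ± 0.37 (SE)). Rbp4, retinol-binding protein itself, was at 0.628, 0.631 and 0.641 CPM in LSECs and 495, 480.3 and 489.5 CPM in Hepa1-6 cells, and Enpp2, the secreted enzyme autotaxin that makes lysophosphatidic acid, at 0.477, 0.344 and 0.437 CPM in LSECs and 828, 816 and 828 CPM in Hepa1-6 cells. Tspan8, a tetraspanin, averaged 0.416 CPM in LSECs and 263 CPM in Hepa1-6 cells, and Dnajc22 0.251 CPM in LSECs and 136 CPM in Hepa1-6 cells. Tested genes at 10 CPM or more in one cell with no count in any library of the other numbered 353 for LSECs and 97 for Hepa1-6 cells.

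Homeobox genes, which record position along the body axis, differed between the cells along their clusters. In the A cluster Hoxa2 to Hoxa5, toward the 3′ end, were higher in LSECs. Hoxa5 was at 31, 24.6 and 22.1 CPM in LSECs and 1.29, 0.576 and 1.33 CPM in Hepa1-6 cells, and Hoxa4 at 16, 11.9 and 12.3 CPM in LSECs and 0.0824, 0.332 and 0.556 CPM in Hepa1-6 cells. The 3 A cluster genes higher in Hepa1-6 cells were Hoxa6, Hoxa9 and Hoxa10. Hoxa10 was at 0, 0.0573 and 0.0583 CPM in LSECs and 50.2, 50.6 and 49 CPM in Hepa1-6 cells, and Hoxa9 at 0, 0 and 0.117 CPM in LSECs and 2.83, 2.86 and 3.31 CPM in Hepa1-6 cells. Of 8 tested A cluster genes 5 were higher in LSECs, 4 of them by 4-fold, and 3 were at least 4-fold higher in Hepa1-6 cells. In the B cluster 7 of 8 tested genes were at least 4-fold higher in LSECs and 1 in Hepa1-6 cells. Of all 10 B cluster genes 8 had no count in Hepa1-6 cells and 2 none in LSECs. For a gene almost absent from the other cell, passing the filter already sets its direction, in this and every other list. Hoxb2 to Hoxb5 and Hoxb7 were all above 8 CPM in every LSEC library with no count in Hepa1-6 cells. Where a group has no count, folds are lower bounds, computed as if it held 3 counts in all. Hoxb5 was at 25.3, 16.9 and 20.9 CPM in LSECs, at least 888-fold higher, and Hoxb4 at 22.9, 20.3 and 18.9 CPM, at least 874-fold higher. Hoxb13, at the 5′ end of the cluster, had no count in LSECs and 3.87, 2.57 and 2.98 CPM in Hepa1-6 cells. No C cluster gene was tested, and of the D cluster only Hoxd8 was, at 0.715, 0.315 and 0.379 CPM in LSECs with no count in Hepa1-6 cells.

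**Figure D2:**
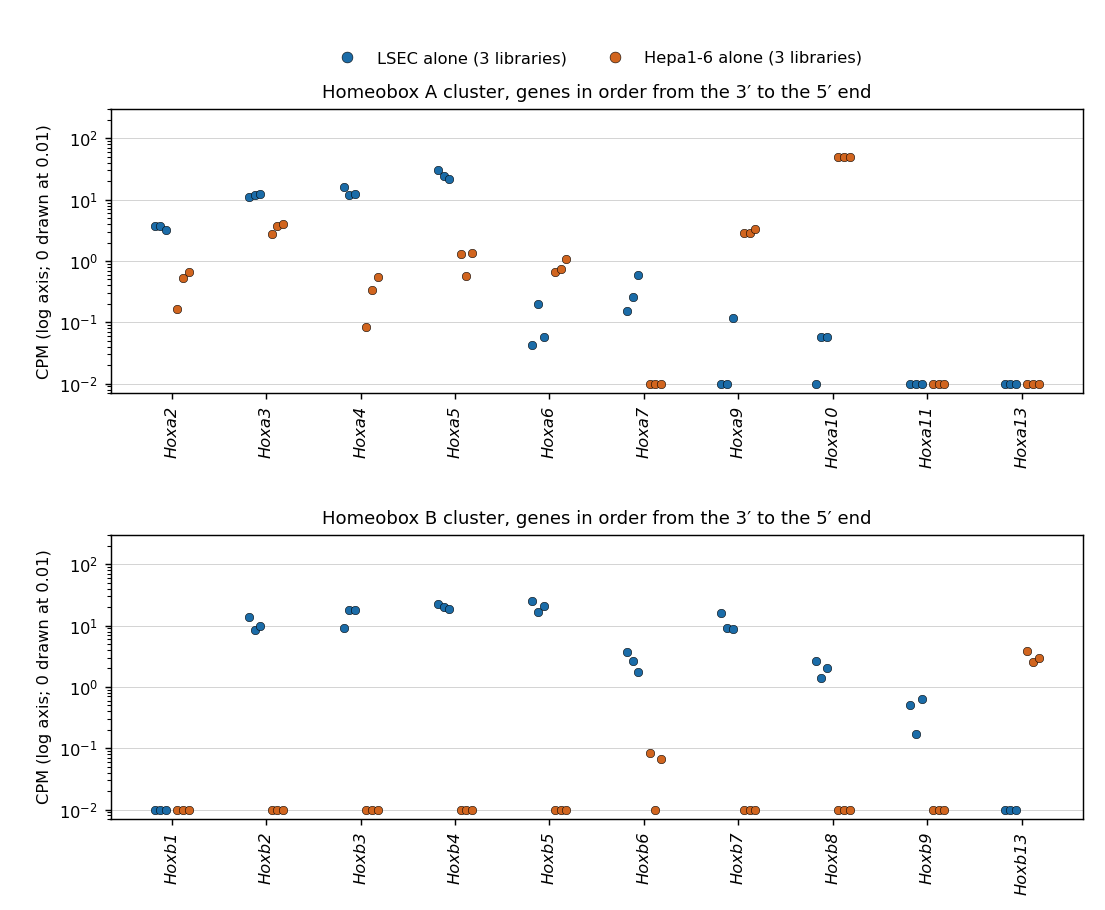
CPM (log axis, with a value of 0 drawn at 0.01) of genes of the homeobox A and B clusters, in order along the cluster, in the 3 libraries of LSECs alone and the 3 of Hepa1-6 cells alone. LSEC values are high on the left of each cluster, and Hepa1-6 values at Hoxa9, Hoxa10 and Hoxb13.

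Lineage transcription factors differed between the cells. All 4 tested GATA factors were at least 4-fold higher in LSECs. Gata4, a regulator of sinusoidal endothelium, was at 218, 276 and 283 CPM in LSECs and 28.5, 24.7 and 27.1 CPM in Hepa1-6 cells, and Gata2, a vascular and blood regulator, at 28.2, 31.3 and 28.8 CPM in LSECs with no count in Hepa1-6 cells. The F-type SOX factors of endothelium, Sox17, Sox18 and Sox7, averaged 196, 95.7 and 86.2 CPM in LSECs, with none counted in Hepa1-6 cells. Sox9, a bile duct and progenitor factor, was at 0, 0.086 and 0.146 CPM in LSECs and 57.9, 58.7 and 57.4 CPM in Hepa1-6 cells. Of 15 tested liver-enriched factors 1 was at least 4-fold higher in LSECs and 10 in Hepa1-6 cells. Hnf4a, a central hepatocyte regulator, was at 0, 0.172 and 0.204 CPM in LSECs and 65.3, 67.2 and 67.5 CPM in Hepa1-6 cells, Foxa2, which opens liver enhancers, at 0.065, 0 and 0.146 CPM in LSECs and 94.1, 96.1 and 98 CPM in Hepa1-6 cells, and Tbx3, a liver progenitor factor and a known target of beta-catenin, at 0.065, 0 and 0.0583 CPM in LSECs and 206, 206 and 212 CPM in Hepa1-6 cells. Among the factors against this direction Cebpd stood at 69.2, 39.1 and 39.3 CPM in LSECs and 3.87, 4.38 and 4.52 CPM in Hepa1-6 cells. The forkhead family was split. Foxo1 and Foxo3, targets of insulin signalling, averaged 76.7 and 109 CPM in LSECs and 12.2 and 29.6 CPM in Hepa1-6 cells, while Foxm1, which drives mitotic genes, was at 7.75 CPM in LSECs and 204 CPM in Hepa1-6 cells.

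ETS factors, which bind the core letters GGAA, also divided by cell. Of 19 tested, 10 were called for LSECs and 4 for Hepa1-6 cells, and 12 and 7 without LSEC replicate 1. Erg, a keeper of endothelial identity, was at 151, 205 and 213 CPM in LSECs with no count in Hepa1-6 cells, and Ets1 at 308, 581 and 595 CPM in LSECs and 67.9, 71.8 and 72.8 CPM in Hepa1-6 cells. The epithelial members Ehf and Elf3 went the other way: Ehf was at 0.0867, 0 and 0.262 CPM in LSECs and 102, 98.9 and 101 CPM in Hepa1-6 cells, and Elf3 had no count in LSECs and 19.4, 22.1 and 20.1 CPM in Hepa1-6 cells. Regulators of epithelial and mesenchymal state did not all point one way, with 6 of 11 tested higher in LSECs and 4 in Hepa1-6 cells. Zeb2, a repressor of epithelial genes, was at 49.9, 157 and 174 CPM in LSECs and 6.97, 6.73 and 7.5 CPM in Hepa1-6 cells, and Esrp2, an epithelial splicing regulator, at 0.108, 0.459 and 0.67 CPM in LSECs and 25.4, 25.7 and 26.7 CPM in Hepa1-6 cells. Kruppel-like factors were called for LSECs in 7 of 13 cases and for Hepa1-6 cells in 4. Klf3, counted for LSECs, overlapped between the groups. Klf3 and Klf16, the latter counted for Hepa1-6 cells, each lost their call in 7 alternatives.

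Promoters of the liver and vascular genes were searched for the letters these factors bind, in windows of 250 bases before to 50 bases after RefSeq gene starts on GRCm38.p6, on both strands. The HNF1 letters GTTAATNAT were held by 0.560% of 2320 genes at least 4-fold higher in LSECs, 1.86% of 1774 genes at least 4-fold higher in Hepa1-6 cells, 0.674% of 12012 tested genes, and 0.940% of all 27025 genes in the promoter table. The ETS letters AGGAAG were held by 45.2%, 39.6%, 38.6% and 38.4% in the same order, and the forkhead letters TGTTTAC by 3.41%, 5.41%, 3.35% and 4.05%. The GATA letters AGATAA stood at 9.57%, 11.7%, 8.37% and 12.7%, and the TATA box letters TATAAA at 12.4%, 14.2%, 9.98% and 15.7%. For both of these motifs the LSEC and the Hepa1-6 genes lay above the tested genes and below the whole table. The HNF4 letters CAAAGTCCA were in 0.474% of the LSEC genes, 0.846% of the Hepa1-6 genes, 60 of the 12012 tested genes and 0.555% of the table. The C/EBP letters TTGCNNAA were in 11.9%, 13.5%, 10.6% and 12.2% of the same sets. A match describes letters only. The promoters of 4 genes are printed to show where the letters lie, with matches in capitals, as the letters or as their reverse complement: those of the neighbouring liver genes Alb and Afp, plus strand, chr5:90460620-90460919 and chr5:90490464-90490763, for HNF1, and those of the endothelial genes Robo4, plus strand, chr9:37401722-37402021, and Tie1, minus strand, chr4:118489800-118490099, for ETS.
Alb: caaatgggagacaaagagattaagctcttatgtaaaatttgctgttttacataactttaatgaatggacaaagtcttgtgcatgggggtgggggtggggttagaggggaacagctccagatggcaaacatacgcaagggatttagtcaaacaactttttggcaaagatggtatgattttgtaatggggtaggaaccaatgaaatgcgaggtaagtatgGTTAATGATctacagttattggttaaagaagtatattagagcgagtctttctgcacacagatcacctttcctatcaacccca
Afp: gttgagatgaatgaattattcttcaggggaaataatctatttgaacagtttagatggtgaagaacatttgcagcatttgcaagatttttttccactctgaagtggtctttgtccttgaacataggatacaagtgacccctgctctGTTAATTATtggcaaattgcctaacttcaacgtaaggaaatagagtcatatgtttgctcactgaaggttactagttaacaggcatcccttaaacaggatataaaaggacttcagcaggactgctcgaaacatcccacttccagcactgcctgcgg
Robo4: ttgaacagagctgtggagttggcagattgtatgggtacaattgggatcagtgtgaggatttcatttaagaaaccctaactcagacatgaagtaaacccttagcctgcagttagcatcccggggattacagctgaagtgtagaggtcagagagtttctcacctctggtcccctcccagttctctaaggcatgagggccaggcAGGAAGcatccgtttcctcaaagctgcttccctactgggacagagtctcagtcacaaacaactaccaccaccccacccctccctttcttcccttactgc
Tie1: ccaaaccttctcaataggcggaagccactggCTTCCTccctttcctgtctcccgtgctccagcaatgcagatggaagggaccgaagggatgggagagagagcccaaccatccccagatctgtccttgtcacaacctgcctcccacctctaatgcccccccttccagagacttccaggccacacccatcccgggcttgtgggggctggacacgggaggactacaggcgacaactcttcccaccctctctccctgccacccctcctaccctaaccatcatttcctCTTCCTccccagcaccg
Alb and Afp each held 1 HNF1 match, Robo4 held 1 ETS match and Tie1 held 2. The window of Tek, the receptor kinase related to Tie1, was searched likewise, held 0 ETS matches and is not printed. Albumin was at 10.4, 5.36 and 6.53 CPM in LSECs and 2017, 2042 and 2065 CPM in Hepa1-6 cells, and alpha-fetoprotein, its fetal relative, at 3.62, 1.63 and 1.46 CPM in LSECs and 1535, 1532 and 1588 CPM in Hepa1-6 cells. Robo4, a guidance receptor of vessels, chosen after its values were seen, was at 1095, 1094 and 1105 CPM in LSECs with no count in Hepa1-6 cells. Tie1, an endothelial receptor kinase, was at 491, 510.0 and 536 CPM in LSECs and 0, 0.0664 and 0 CPM in Hepa1-6 cells.

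Imprinted genes are expressed from the copy of one parent and mostly regulate fetal growth. Of 20 tested, 16 were called for LSECs, 15 of them by 4-fold, and 4 for Hepa1-6 cells, 1 of them by 4-fold. Of all 31 listed genes 20 had no count in Hepa1-6 cells and 6 none in LSECs. Where such a gene passed the filter, its direction was already set. The list summed to 1838 to 2081 CPM in LSECs and 1263 to 1293 CPM in Hepa1-6 cells. Mest was at 218, 266 and 286 CPM in LSECs with no count in Hepa1-6 cells, at least 10800-fold higher. Peg10, a gene derived from a retrotransposon, was at 84.7, 165 and 201 CPM in LSECs with no count in Hepa1-6 cells, at least 6340-fold higher. Its neighbour Sgce, chosen after its values were seen, was at 72.7, 65.9 and 62.5 CPM in LSECs with no count in Hepa1-6 cells. Grb10, which restrains insulin signalling, was at 110.4, 157 and 154 CPM in LSECs and 1.81, 1.66 and 1.91 CPM in Hepa1-6 cells, and Igf2r, the receptor that clears insulin-like growth factor 2, at 90.4, 227 and 219.6 CPM in LSECs and 5.63, 4.43 and 5.7 CPM in Hepa1-6 cells. The 4 genes higher in Hepa1-6 cells were Gnas, Kcnq1ot1, Igf2 and Airn, of which Gnas lost its call in 6 alternatives, among them the replicate block and leaving out any 1 Hepa1-6 library. Igf2 was at 0.347, 0.487 and 0.262 CPM in LSECs and 7.08, 7.46 and 6.45 CPM in Hepa1-6 cells. Airn and Kcnq1ot1 are antisense to other genes and the strand setting of the counting is not given, so their counts are uncertain.

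Most tested genes normally limited to germ cells or the early embryo were higher in the tumour line. Of 42 listed genes in the deposited data 29 had no count in LSECs and 22 none in Hepa1-6 cells, and 11 passed the filter. Of these 11, 9 were at least 4-fold higher in Hepa1-6 cells, and 2, Piwil2 and Xlr3b, were called for LSECs by less than 4-fold. For a gene almost absent from the other cell, passing the filter already sets its direction. Piwil2 averaged 0.67 CPM in LSECs and 0.201 CPM in Hepa1-6 cells, and Xlr3b 1.89 CPM in LSECs and 1.19 CPM in Hepa1-6 cells. The number called for LSECs was 1 with the replicate block, without LSEC replicate 2 and when any 1 Hepa1-6 library was left out. Rhox5, an X-linked homeobox gene of testis and placenta, was at 2.04, 0.86 and 1.37 CPM in LSECs and 235, 231 and 222 CPM in Hepa1-6 cells. Pnma5 had no count in LSECs and 231, 236 and 246 CPM in Hepa1-6 cells. Dppa4, a chromatin protein of pluripotent cells, had no count in LSECs and 27.2, 29.1 and 29.9 CPM in Hepa1-6 cells, and its partner Dppa2 was at 0.0433, 0 and 0 CPM in LSECs and 25.3, 27 and 23.2 CPM in Hepa1-6 cells. Oncofetal RNA-binding proteins showed the same direction, with 0 of 4 tested at least 4-fold higher in LSECs and 3 in Hepa1-6 cells. Igf2bp1 was at 9.31, 11.5 and 9.7 CPM in LSECs and 152, 152 and 149 CPM in Hepa1-6 cells, and Lin28b, which blocks maturation of let-7 microRNAs, at 0.0217, 0.0287 and 0.0291 CPM in LSECs and 3.93, 4.7 and 4.56 CPM in Hepa1-6 cells. Drosha, the nuclease that starts microRNA maturation, was at 59, 81.3 and 78.6 CPM in LSECs and 349.6, 339.9 and 348 CPM in Hepa1-6 cells. Of 11 tested microRNA-processing genes 2 were called for LSECs and 4 for Hepa1-6 cells, and 5 and 6 without LSEC replicate 1. Dicer1, Dgcr8 and Ago2 were among those not called with all libraries.

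The sex chromosomes differed between the cells. Xist, the RNA that coats the inactive X chromosome, was at 0, 0 and 0.0874 CPM in LSECs and 493, 498 and 539 CPM in Hepa1-6 cells, which is 3 against 64662 counts over the groups. It was chosen after its values were seen, and the labels give no sex. The Y-linked genes Ddx3y, Eif2s3y, Kdm5d and Uty, chosen after their values were seen, showed the reverse. Ddx3y was at 19.8, 72.3 and 80.1 CPM in LSECs, Eif2s3y at 51.7, 55.8 and 58.8 CPM, Kdm5d at 9.96, 27 and 29.7 CPM and Uty at 6.95, 23.5 and 22.6 CPM, each with no count in any Hepa1-6 library. On the X chromosome 23.2% of 577 tested genes were at least 4-fold higher in LSECs and 22.4% in Hepa1-6 cells, where the autosomes ranged over 13.8% to 23.3% and 11.2% to 21.8%. On the X chromosome 5 neighbouring armadillo-repeat genes had no count in Hepa1-6 cells. Armcx1, Armcx2, Armcx3, Armcx4 and Armcx6 averaged 48.1, 69.1, 72.8, 47 and 11.1 CPM in LSECs. The related Armcx5 was at 4.05, 8.63 and 9.03 CPM in LSECs and 11.6, 10.2 and 11.9 CPM in Hepa1-6 cells and was not called (edgeR adjusted p = 0.109). The Armcx genes were named after a search of all chromosomes for runs of at least 3 neighbouring expressed genes with 10 CPM or more in one cell and no count in the other. It found 7 runs, all expressed in LSECs, among them C1qa to C1qc, the Gimap genes and the homeobox B genes above. Tested genes with such a level in one cell and no count in the other numbered 353 for LSECs and 97 for Hepa1-6 cells. C1qa is also on the macrophage list, whose part in these runs was not tested. Between autosomes the share of genes higher in LSECs by 4-fold was highest on chromosome 12, at 23.3%, and lowest on chromosome 15, at 13.8%. Chromosome 1 had the highest autosomal share of Hepa1-6 genes, at 21.8%.

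Cell division genes were higher in Hepa1-6 cells. All 34 mitosis genes were at least 4-fold higher in Hepa1-6 cells, with a median log2 fold change of -5.65. Top2a, which untangles chromosomes, was at 5.16, 8.05 and 9.21 CPM in LSECs and 824, 837 and 813 CPM in Hepa1-6 cells (log2 fold change -6.79 ± 0.27 (SE), edgeR adjusted p = 6.02e-06, n = 3 each). The proliferation antigen Mki67 was at 6.3, 11.2 and 12.1 CPM in LSECs and 524, 521 and 532 CPM in Hepa1-6 cells, and Cdk1, the mitotic kinase, at 8.38, 6.39 and 4.81 CPM in LSECs and 328, 332 and 331 CPM in Hepa1-6 cells. Of 40 G1/S and replication genes 1 was called for LSECs and 37 for Hepa1-6 cells, 30 of these by 4-fold. The D-type cyclins, which start the cycle, went opposite ways. Ccnd1 was at 75.3, 87.5 and 83.2 CPM in LSECs and 1028, 1049 and 1048 CPM in Hepa1-6 cells, whereas Ccnd2 was at 103, 159.5 and 157 CPM in LSECs with no count in Hepa1-6 cells, at least 5890-fold higher.

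Of 7 tested inhibitors of cyclin-dependent kinases 3 were higher in LSECs and 1 in Hepa1-6 cells, and 4 and 3 without LSEC replicate 1. Cdkn1a, the p21 inhibitor, was at 1887, 1695 and 1702 CPM in LSECs and 118, 111 and 113 CPM in Hepa1-6 cells, and Cdkn1c, the p57 inhibitor, at 17.1, 13.6 and 12.5 CPM in LSECs with no count in Hepa1-6 cells. The 1 higher in Hepa1-6 cells with all libraries was Cdkn2c, at 10.2, 8.26 and 6.84 CPM in LSECs and 48.8, 51.3 and 53.3 CPM in Hepa1-6 cells. Of 25 genes of p53 and its targets 16 were higher in LSECs and 6 in Hepa1-6 cells. Mdm2, which degrades p53, was at 363, 516 and 523 CPM in LSECs and 199, 197 and 194 CPM in Hepa1-6 cells, and Bax, an inducer of cell death, at 864, 391 and 388 CPM in LSECs and 161, 159 and 158 CPM in Hepa1-6 cells. Against them Perp, a desmosomal p53 target, was at 0.975, 1.38 and 0.699 CPM in LSECs and 93.5, 102 and 93.8 CPM in Hepa1-6 cells. Of 35 tested DNA repair genes 3 were called for LSECs (5 without LSEC replicate 1) and 25 for Hepa1-6 cells. Brca1 was at 2.04, 2.38 and 1.75 CPM in LSECs and 102, 101 and 103 CPM in Hepa1-6 cells, while Xpc, a sensor of ultraviolet damage, was at 54.5, 64.3 and 68.6 CPM in LSECs and 22.2, 23.1 and 21.9 CPM in Hepa1-6 cells. Dnmt1 and Uhrf1, which copy DNA methylation at replication, averaged 71.3 and 9.45 CPM in LSECs and 229 and 302 CPM in Hepa1-6 cells. Hmga2, a chromatin protein best known from fetal tissue, was higher in LSECs, at 85.5, 129 and 122 CPM in LSECs and 2, 1.9 and 1.74 CPM in Hepa1-6 cells.

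Circadian clock genes were higher in LSECs in 14 of 16 cases, 8 of them by 4-fold. Tef, an output factor of the clock, averaged 151 ± 11.8 CPM in LSECs and 20.5 ± 1.75 CPM in Hepa1-6 cells (SD, n = 3 each). Nr1d1, a repressor within the clock, was at 75.5, 83.2 and 88.6 CPM in LSECs and 13.2, 13.9 and 15.3 CPM in Hepa1-6 cells. The exceptions were Bhlhe40, at 28, 36.8 and 40.3 CPM in LSECs and 139.9, 141 and 139 CPM in Hepa1-6 cells, and Arntl, the activator Bmal1, at 11.8, 16.2 and 18.8 CPM in LSECs and 24, 21.6 and 23.9 CPM in Hepa1-6 cells. Arntl (log2 fold change -0.57 ± 0.19 (SE)) lost its call in 6 alternatives, among them the replicate block and leaving out any 1 Hepa1-6 library. The time of day of harvest is not given in the sources used here.

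**Figure D3:**
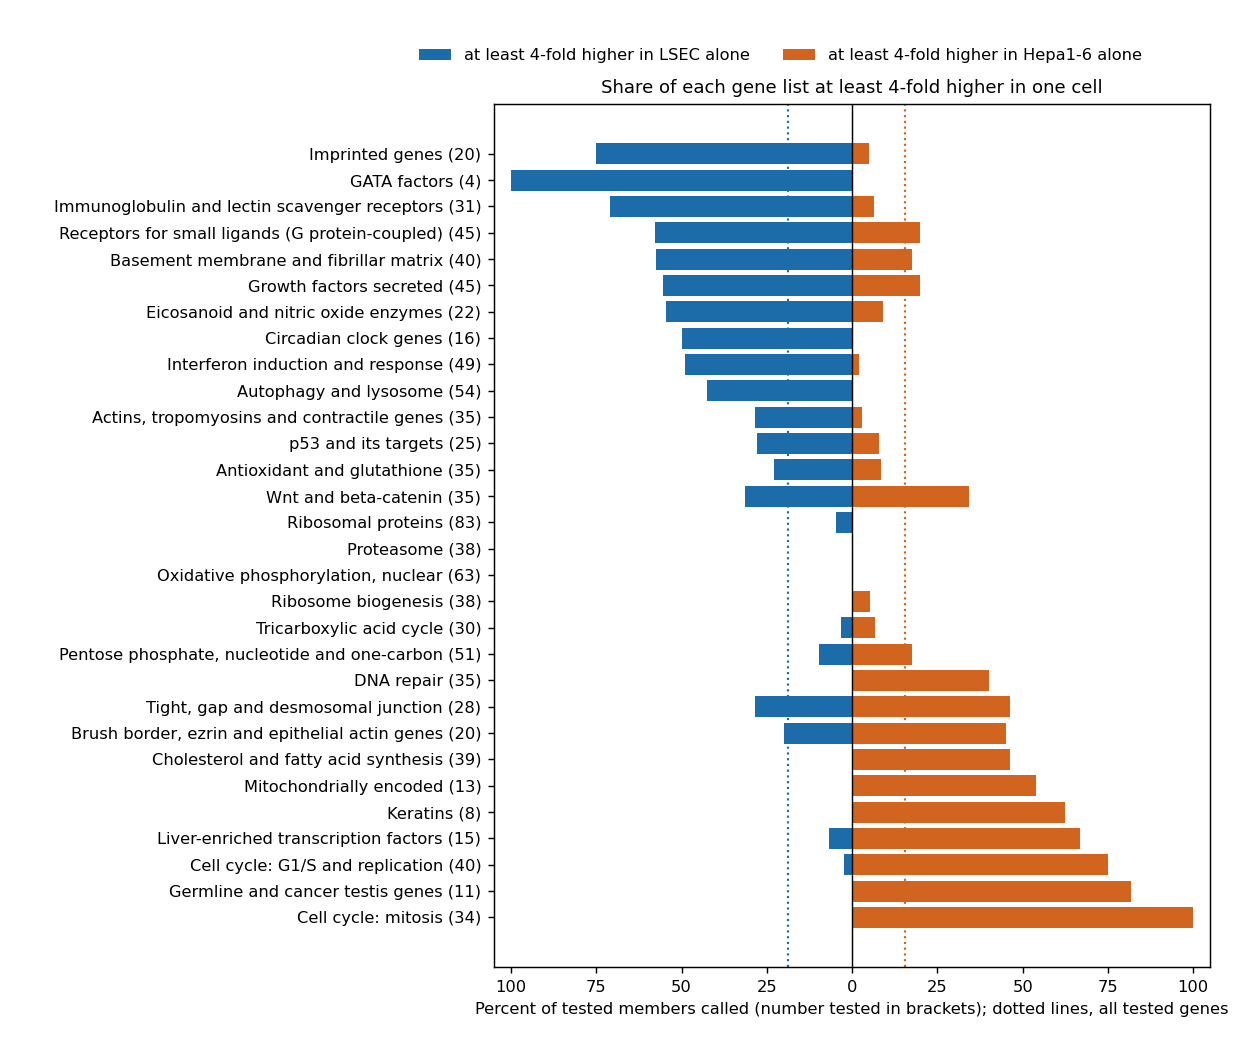
Percent of the tested members of each gene list at least 4-fold higher in LSECs alone (bars to the left) or in Hepa1-6 cells alone (bars to the right), with the number tested in brackets; dotted lines mark 18.8% and 15.5%, the shares over all tested genes. Mitosis reaches 100% on the Hepa1-6 side, and imprinted genes stand at 75% on the LSEC side.

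Of 35 tested Wnt signalling genes 14 were higher in LSECs and 16 in Hepa1-6 cells. Those of highest CPM in Hepa1-6 cells were known feedback regulators and targets of beta-catenin. Axin2, a feedback inhibitor, was at 0.325, 1.26 and 0.728 CPM in LSECs and 321, 315 and 323 CPM in Hepa1-6 cells (log2 fold change -8.73 ± 0.46 (SE), edgeR adjusted p = 1.43e-05, n = 3 each). Nkd1, another inhibitor, was at 9.14, 8.63 and 8.68 CPM in LSECs and 372, 358 and 382 CPM in Hepa1-6 cells, and Tcf7, a transcription factor of the pathway, at 3.77, 3.9 and 4.2 CPM in LSECs and 287, 281 and 276 CPM in Hepa1-6 cells. Lgr5, the R-spondin receptor of stem cells, was at 0.108, 0 and 0 CPM in LSECs and 148, 152 and 148 CPM in Hepa1-6 cells. Other feedback genes, chosen after their values were seen, went the same way. Notum averaged 0.0433 CPM in LSECs and 110.0 CPM in Hepa1-6 cells, Sp5 3.61 CPM in LSECs and 132 CPM in Hepa1-6 cells, Znrf3 3.13 CPM in LSECs and 107 CPM in Hepa1-6 cells, and Rnf43 0.203 CPM in LSECs and 91.5 CPM in Hepa1-6 cells. Wnt genes higher in LSECs included Wls and Ctnnb1. Wls, which carries Wnt proteins to the surface, was at 139, 212 and 207 CPM in LSECs and 0.165, 0.0664 and 0 CPM in Hepa1-6 cells, and Ctnnb1, beta-catenin itself, at 602, 877 and 926 CPM in LSECs and 422, 417 and 428 CPM in Hepa1-6 cells.

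Growth factors and their receptors differed in both directions. Of 39 tested receptor tyrosine kinases 14 were at least 4-fold higher in LSECs and 11 in Hepa1-6 cells. Kdr, the main receptor of vascular endothelial growth factor, was at 537, 991 and 1080 CPM in LSECs with no count in Hepa1-6 cells, and Kit, the stem cell factor receptor, at 244, 472 and 520.0 CPM in LSECs with no count in Hepa1-6 cells. Egfr, the epidermal growth factor receptor, was at 2.88, 5.85 and 5.94 CPM in LSECs and 224, 220.0 and 227 CPM in Hepa1-6 cells, and Met, the hepatocyte growth factor receptor, at 6.69, 13.8 and 14.1 CPM in LSECs and 188, 183 and 191 CPM in Hepa1-6 cells. Ddr2, a collagen receptor, was at 3.27, 5.42 and 5.24 CPM in LSECs and 225, 229.8 and 218 CPM in Hepa1-6 cells. Of 45 secreted growth factors 25 were at least 4-fold higher in LSECs and 9 in Hepa1-6 cells. Angpt2, which loosens vessels, was at 1402, 1657 and 1753 CPM in LSECs and 3.9, 4.32 and 4.34 CPM in Hepa1-6 cells, and Apln, the ligand apelin, at 1012, 1235 and 1283 CPM in LSECs and 3.43, 2.48 and 2.85 CPM in Hepa1-6 cells. Bmp7 had no count in LSECs and 94.2, 89.6 and 87.7 CPM in Hepa1-6 cells. In the Notch pathway 9 of 17 genes were called for LSECs and 5 for Hepa1-6 cells, with the second count at 3 when LSEC replicate 2 or any 1 Hepa1-6 library was left out. Notch1 and Notch4 averaged 315 and 206 CPM in LSECs and 10.2 and 1.9 CPM in Hepa1-6 cells, while Notch2 and the ligand Jag1 averaged 19.7 and 74.4 CPM in LSECs and 85.2 and 252 CPM in Hepa1-6 cells. Of 33 tested genes of transforming growth factor beta and bone morphogenetic protein signalling 21 were called for LSECs and 6 for Hepa1-6 cells. By 4-fold these counts were 13 and 4. Against this majority Fst, the activin trap follistatin, was at 1.24, 1.58 and 1.69 CPM in LSECs and 73.1, 71 and 75.5 CPM in Hepa1-6 cells.

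Receptors for small ligands were higher in LSECs by 4-fold in 26 of 45 cases and in Hepa1-6 cells in 9. S1pr1, the sphingosine-1-phosphate receptor that seals endothelium, was at 1203, 1486 and 1500 CPM in LSECs and 11.1, 10.2 and 10.1 CPM in Hepa1-6 cells. F2r, a thrombin receptor, was at 423, 731 and 766 CPM in LSECs and 0.11, 0.199 and 0.0445 CPM in Hepa1-6 cells, and Ednrb, an endothelin receptor, at 199.7, 346 and 376 CPM in LSECs with no count in Hepa1-6 cells. Gprc5c, a retinoic acid-induced receptor, was at 3.29, 4.67 and 4.17 CPM in LSECs and 82.9, 86.1 and 86.1 CPM in Hepa1-6 cells. Adhesion G protein-coupled receptors included Adgrl4 at 815, 1094 and 1124 CPM in LSECs and 0, 0 and 0.0445 CPM in Hepa1-6 cells. Of 20 tested potassium channels 12 were higher in LSECs and 6 in Hepa1-6 cells, among them Kcnk5 at 43.1, 51.9 and 50.9 CPM in LSECs and 89.9, 102 and 101 CPM in Hepa1-6 cells.

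Cadherins and claudins differed by member. Cdh5, the endothelial cadherin, was at 2041, 3812 and 4046 CPM in LSECs with no count in Hepa1-6 cells. Cdh17, the liver-intestine cadherin, was at 0.173, 0 and 0.233 CPM in LSECs and 632, 640.3 and 629.8 CPM in Hepa1-6 cells. Cdh1, the classical epithelial cadherin, was under 1 CPM on average in both cells and not called. Cldn5, the claudin of vessels, was at 503, 257 and 244 CPM in LSECs with no count in Hepa1-6 cells, and the epithelial claudins Cldn4 and Cldn3 averaged 0.494 and 0.511 CPM in LSECs and 49 and 25 CPM in Hepa1-6 cells. Of 28 tight, gap and desmosomal junction genes 9 were higher in LSECs and 16 in Hepa1-6 cells. The desmosome anchor Dsp was at 0.13, 0.143 and 0.408 CPM in LSECs and 86.8, 82 and 83.8 CPM in Hepa1-6 cells, and Gja1, the connexin 43 gap junction protein, at 132, 167 and 166 CPM in LSECs and 0, 0.0443 and 0.111 CPM in Hepa1-6 cells. Integrins were higher in LSECs in 14 of 22 cases and in Hepa1-6 cells in 7. Itga9 was at 134, 212 and 198 CPM in LSECs with no count in Hepa1-6 cells, while Itga2, a collagen receptor chain, was at 1.45, 4.64 and 3.52 CPM in LSECs and 170.0, 166 and 176 CPM in Hepa1-6 cells and Itga3, a laminin receptor chain, at 154, 196 and 197 CPM in LSECs and 705, 692 and 718 CPM in Hepa1-6 cells.

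Vimentin and nestin were higher in LSECs and most keratins in Hepa1-6 cells. Of 8 tested keratins 0 were at least 4-fold higher in LSECs and 5 in Hepa1-6 cells. Krt18, which pairs with Krt8 in simple epithelia, was at 8.43, 3.41 and 4.57 CPM in LSECs and 1168, 1162 and 1175 CPM in Hepa1-6 cells. Krt8 itself was at 8.97, 3.75 and 5.83 CPM in LSECs and 447, 449 and 459 CPM in Hepa1-6 cells. Krt20, a keratin of intestinal epithelium, and Krt5, of basal epithelium, had no count in LSECs and averaged 101 and 16.1 CPM in Hepa1-6 cells. Vim, vimentin, was at 1898, 1423 and 1396 CPM in LSECs and 244, 248 and 238 CPM in Hepa1-6 cells, and Nes, nestin, at 229.9, 253 and 238 CPM in LSECs with no count in Hepa1-6 cells. Lmnb1, a lamin of dividing nuclei, was at 18.5, 22.4 and 21.5 CPM in LSECs and 246, 255 and 253 CPM in Hepa1-6 cells.

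Of 35 contractile genes 28 were higher in LSECs and 3 in Hepa1-6 cells. Membrane linkers of actin went opposite ways. Msn, moesin, was at 1237, 2353 and 2379 CPM in LSECs and 309.8, 301 and 302 CPM in Hepa1-6 cells, whereas its relative Ezr, ezrin, was at 26.6, 34.2 and 35.1 CPM in LSECs and 138, 141 and 137 CPM in Hepa1-6 cells. Vil1, villin of the brush border, was at 0.065, 0 and 0.233 CPM in LSECs and 188, 189 and 196 CPM in Hepa1-6 cells. Flnc, the muscle filamin, was 1 of the 3 contractile genes higher in Hepa1-6 cells, at 5.13, 9.55 and 9.26 CPM in LSECs and 122, 120.1 and 126 CPM in Hepa1-6 cells. Tubulin genes are near-identical copies and are not described singly.

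The matrix made by each cell differed in kind. Of 40 tested basement membrane and fibrillar matrix genes 23 were at least 4-fold higher in LSECs and 7 in Hepa1-6 cells. Col4a1, a chain of basement membrane collagen, was at 3847, 7530 and 7828 CPM in LSECs and 85.3, 82.8 and 90.4 CPM in Hepa1-6 cells, and Sparc, a collagen chaperone outside the cell, at 4672, 4271 and 4190 CPM in LSECs and 334, 332 and 328 CPM in Hepa1-6 cells. Fn1, fibronectin, was at 30.2, 61.7 and 74.7 CPM in LSECs and 4718, 4501 and 4735 CPM in Hepa1-6 cells, and Lamb3, a laminin chain of epithelial anchors, at 0, 0.115 and 0 CPM in LSECs and 267, 265 and 274 CPM in Hepa1-6 cells. Small proteoglycans went opposite ways. Bgn, biglycan, was at 688, 711 and 729.6 CPM in LSECs and 0.796, 0.842 and 0.579 CPM in Hepa1-6 cells, while Dcn, decorin, listed here as a stellate cell marker, was at 15.5, 18.3 and 19.8 CPM in LSECs and 1961, 1971 and 1943 CPM in Hepa1-6 cells. Sdc3, a syndecan, was at 239, 328 and 303 CPM in LSECs with no count in Hepa1-6 cells, and Sdc1, the epithelial syndecan, at 3.92, 3.7 and 3.67 CPM in LSECs and 77, 77.9 and 79.5 CPM in Hepa1-6 cells. Timp3 was at 776 CPM in LSECs and 54.9 CPM in Hepa1-6 cells on average, and Timp2 at 31.8 CPM in LSECs and 208 CPM in Hepa1-6 cells. The plasminogen activators also split. Plau was at 259, 306 and 295 CPM in LSECs with no count in Hepa1-6 cells, and Plat at 4.64, 4.3 and 4.78 CPM in LSECs and 126, 124 and 129 CPM in Hepa1-6 cells.

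Of 35 tested secreted plasma proteins 15 were called for LSECs and 17 for Hepa1-6 cells, and the LSEC count was 5 where genes needed 1 CPM in 3 libraries. Besides Alb and Afp, Itih2, a hyaluronan-binding plasma protein, was at 0, 0.172 and 0.175 CPM in LSECs and 659, 669.6 and 673 CPM in Hepa1-6 cells, and Igfbp4, a carrier of insulin-like growth factors, at 243, 173 and 153 CPM in LSECs and 1766, 1792 and 1831 CPM in Hepa1-6 cells. Apoe was higher in LSECs, at 2122, 1011 and 916 CPM in LSECs and 598, 604 and 622 CPM in Hepa1-6 cells (log2 fold change 1.15), but was not called when any 1 of the 3 Hepa1-6 libraries was left out (1.11 to 1.14), and stood at 0.64 without LSEC replicate 1. Coagulation and complement genes were higher in LSECs in 11 of 20 and 20 of 29 cases, and in Hepa1-6 cells in 6 of each list. The coagulation count for LSECs was 17 in a fit of all 12 libraries. Pros1, protein S, was at 786, 1041 and 1069 CPM in LSECs and 37.8, 38.1 and 36.1 CPM in Hepa1-6 cells, and Thbd, thrombomodulin, at 258, 469.8 and 456 CPM in LSECs with no count in Hepa1-6 cells. Complement genes higher in Hepa1-6 cells included C3, at 12.8, 22.4 and 19.6 CPM in LSECs and 322, 322 and 339 CPM in Hepa1-6 cells, and Clu, clusterin, at 21.7, 15.1 and 15.6 CPM in LSECs and 504, 509 and 503 CPM in Hepa1-6 cells. C1qa was at 269, 128 and 118 CPM in LSECs with no count in Hepa1-6 cells and is also on the macrophage list, whose part in the complement count was not tested.

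Lipid synthesis was higher in Hepa1-6 cells. Of 39 tested cholesterol and fatty acid synthesis genes 3 were called for LSECs and 30 for Hepa1-6 cells, 18 of these by 4-fold. Scd2, a desaturase that makes monounsaturated fatty acids, was at 46.1, 68.6 and 72.2 CPM in LSECs and 2953, 2947 and 2981 CPM in Hepa1-6 cells. Fasn, fatty acid synthase, was at 53.4, 87.3 and 92.8 CPM in LSECs and 788, 785 and 816 CPM in Hepa1-6 cells (log2 fold change -3.36 ± 0.24 (SE), edgeR adjusted p = 4.23e-05, n = 3 each). Of 45 genes of fatty acid uptake and oxidation 22 were higher in LSECs and 16 in Hepa1-6 cells. Cd36, a fatty acid and scavenger receptor, was at 201, 312 and 289 CPM in LSECs with no count in Hepa1-6 cells, and Fabp4, a fatty acid carrier of capillaries, at 433, 219 and 209 CPM in LSECs and 0.494, 0.797 and 0.579 CPM in Hepa1-6 cells. Of 35 sphingolipid and phospholipid enzymes 22 were higher in LSECs and 6 in Hepa1-6 cells. The fatty acid activating enzymes Acsl1 and Acsl3 averaged 18.5 and 11.3 CPM in LSECs and 274 and 279 CPM in Hepa1-6 cells.

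Some isoenzymes of central carbon metabolism differed between the cells. Of 37 tested glycolysis genes 10 were called for LSECs and 15 for Hepa1-6 cells, and 12 were not called. By 4-fold 21.6% were higher in LSECs and 24.3% in Hepa1-6 cells, beside 18.8% and 15.5% over all tested genes. Ldhb, the heart-type lactate dehydrogenase chain, was at 61.7, 36.2 and 36.4 CPM in LSECs with no count in Hepa1-6 cells, while Ldha, the muscle-type chain, was at 650.1, 486 and 466 CPM in LSECs and 1071, 1022 and 1059 CPM in Hepa1-6 cells. Hk3 was at 44.8, 43.5 and 40.1 CPM in LSECs with no count in Hepa1-6 cells. Macrophage markers were present in the LSEC preparation, and their part in the Hk3 level was not tested. Tpi1, a core glycolytic enzyme, was at 244, 168 and 163 CPM in LSECs and 1031, 998 and 1021 CPM in Hepa1-6 cells. In the serine pathway Phgdh, its first enzyme, was at 14.2, 9 and 8.74 CPM in LSECs and 676, 671 and 707 CPM in Hepa1-6 cells, and Psat1, the next, at 22.2, 24.1 and 24.4 CPM in LSECs and 438, 442 and 444 CPM in Hepa1-6 cells. Taldo1, of the pentose phosphate pathway, was higher in LSECs, at 1488, 874 and 866 CPM in LSECs and 232, 232 and 236 CPM in Hepa1-6 cells. Of 30 tricarboxylic acid cycle genes 3 were called for LSECs (7 without LSEC replicate 1), 1 of them by 4-fold, and 19 for Hepa1-6 cells, 2 of them by 4-fold. Odc1, the first enzyme of polyamine synthesis, was higher in LSECs, at 2515, 2319 and 2239 CPM in LSECs and 296, 296 and 292 CPM in Hepa1-6 cells. Of 31 tested cytochromes P450 13 were called for LSECs and 13 for Hepa1-6 cells, 8 and 10 of them by 4-fold. Among those higher in LSECs, Cyp4b1 was at 1181, 1042 and 1092 CPM in LSECs and 7.96, 7.88 and 7.61 CPM in Hepa1-6 cells. Cyp26b1, which breaks down retinoic acid, was at 159, 360.2 and 279 CPM in LSECs and 0.11, 0.177 and 0 CPM in Hepa1-6 cells. Abcc2, the bile canalicular pump, was at 0.303, 0 and 0.32 CPM in LSECs and 251, 243 and 246 CPM in Hepa1-6 cells.

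Transcripts made in mitochondria were higher in Hepa1-6 cells, and all 13 were also called without LSEC replicate 1. With all libraries all 13 tested were called, 7 by 4-fold, and they summed to 12285, 14747 and 14637 CPM in LSECs and 48837, 48629 and 48072 CPM in Hepa1-6 cells. COX1, a core chain of the last respiratory complex, was at 4580, 6075 and 5924 CPM in LSECs and 13684, 13653 and 13410 CPM in Hepa1-6 cells. Nuclear genes of the same machinery gave other counts without that library. Of 63 nuclear oxidative phosphorylation genes 5 were higher in LSECs and 9 in Hepa1-6 cells with all libraries, and 13 and 43 without LSEC replicate 1. The LSEC count was 1 when any 1 Hepa1-6 library was left out. Cytosolic ribosomal protein genes behaved alike, with 6 and 7 of 83 called with all libraries and 8 and 71 without LSEC replicate 1. They summed to 72506, 33958 and 32579 CPM in LSECs and 54275, 55157 and 53322 CPM in Hepa1-6 cells, so that LSEC replicate 1 lay above and LSEC replicates 2 and 3 below every Hepa1-6 library. Ribosomal protein genes have many processed pseudogenes, and their single values are not given. Of 38 proteasome genes 9 were called for LSECs and 5 for Hepa1-6 cells with all libraries, and 12 and 22 without LSEC replicate 1. The proteasome count for LSECs was 4 or 5 when any 1 Hepa1-6 library was left out. Of 38 ribosome biogenesis genes 2 were called for LSECs (4 without LSEC replicate 1) and 29 for Hepa1-6 cells. Npm1, nucleophosmin, was at 757, 658 and 643 CPM in LSECs and 2581, 2649 and 2520 CPM in Hepa1-6 cells.

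**Figure D4:**
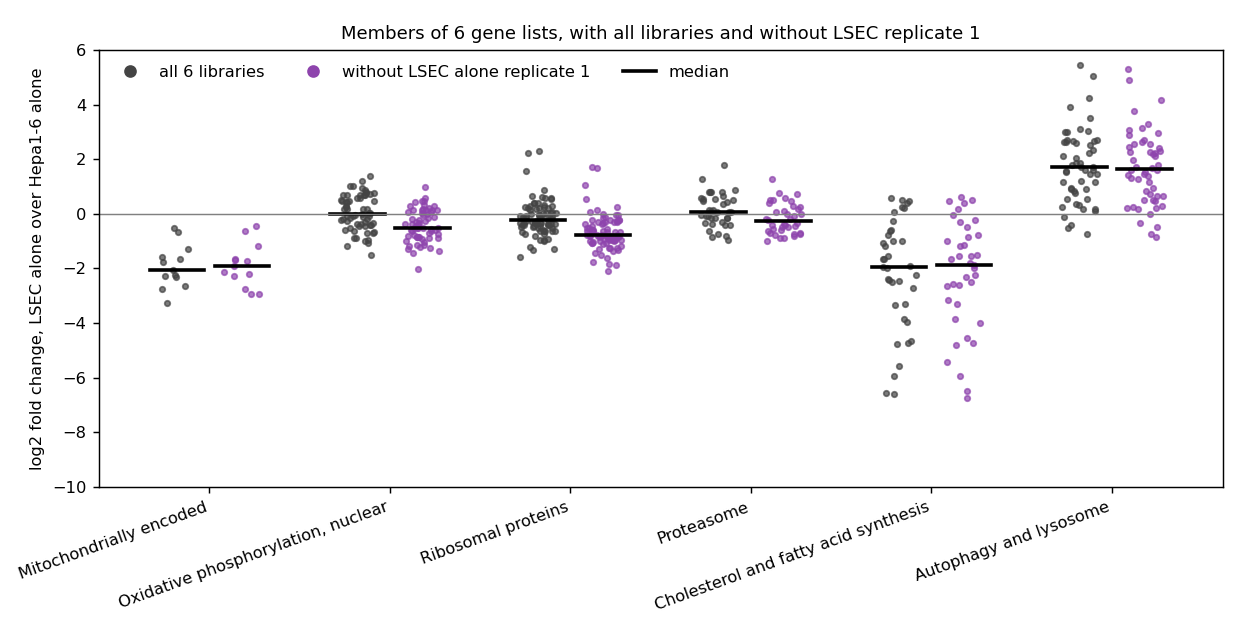
Log2 fold change of LSECs alone over Hepa1-6 cells alone for each tested member of 6 gene lists, with all 6 libraries (dark grey) and without LSEC replicate 1 (purple); bars mark medians. The ribosomal protein median is -0.22 with all libraries and -0.79 without LSEC replicate 1, while that of mitochondrially encoded genes is -2.06 and -1.90.

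Lysosome and autophagy genes were higher in LSECs in 45 of 54 cases, 23 of them by 4-fold, and in Hepa1-6 cells in 3, a count of 5 without LSEC replicate 1 and of 1 without Hepa1-6 replicate 1 or 2. The protease Ctsb was at 5264, 4601 and 4420 CPM in LSECs and 249.5, 246 and 256 CPM in Hepa1-6 cells. The protease Ctsl was at 2998, 2272 and 2289 CPM in LSECs and 378, 395 and 382 CPM in Hepa1-6 cells, and Psap, the precursor of lysosomal saposins, at 3578, 3142 and 3067 CPM in LSECs and 412, 406 and 412 CPM in Hepa1-6 cells. Lysosomal genes are also abundant in macrophages, whose markers were present in LSECs, and their part in this count was not tested. Of 28 iron, copper, zinc and heme genes 15 were higher in LSECs and 9 in Hepa1-6 cells. Hmox1, which frees iron from heme, was at 1565, 1350 and 1356 CPM in LSECs and 15.9, 16.9 and 16.8 CPM in Hepa1-6 cells, and Slc40a1, the iron exporter, at 209.8, 310.3 and 294 CPM in LSECs and 114, 115 and 107 CPM in Hepa1-6 cells. The part of macrophages in the Hmox1 and Slc40a1 levels was likewise not tested. Tfrc, the receptor for iron-loaded transferrin, was at 82.2, 145 and 135 CPM in LSECs and 459, 474 and 466 CPM in Hepa1-6 cells, and Trf, transferrin, at 37.6, 25.6 and 24.2 CPM in LSECs and 667, 649 and 668 CPM in Hepa1-6 cells. Slc7a11, the cystine importer for glutathione, was at 5.24, 9.32 and 10.9 CPM in LSECs and 106, 110.0 and 111 CPM in Hepa1-6 cells.

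Interferon, pattern recognition and antigen presentation genes were mostly higher in LSECs, and macrophage markers moved with them (2606 to 3877 CPM summed in LSECs, 16.19 to 18.54 CPM in Hepa1-6 cells); their part was not tested. Interferon genes were higher in LSECs in 37 of 49 cases and in Hepa1-6 cells in 5 (8 without LSEC replicate 1). Irf7, the regulator that amplifies type I interferon, was at 267, 188 and 158 CPM in LSECs and 0.632, 0.709 and 0.667 CPM in Hepa1-6 cells, and Bst2, which tethers viruses, at 786, 350.1 and 324 CPM in LSECs and 49.1, 50.3 and 58.2 CPM in Hepa1-6 cells. Tmem173, the sensor adaptor STING, was higher in Hepa1-6 cells, at 40.2, 38.2 and 33.4 CPM in LSECs and 103, 99.3 and 101 CPM in Hepa1-6 cells. Pattern recognition genes were higher in LSECs in 31 of 39 cases, with Aim2, a DNA sensor, against them at 15.9, 18.4 and 16.8 CPM in LSECs and 84.3, 82.8 and 86 CPM in Hepa1-6 cells. Genes of class I presentation were higher in LSECs in 15 of 22 cases. Class I heavy chains are near-identical and uncertain. Of 21 genes of class II presentation and costimulation 15 were higher in LSECs and 3 in Hepa1-6 cells, among them Pdcd1lg2, the ligand PD-L2, with no count in LSECs and 34.5, 40.5 and 36.3 CPM in Hepa1-6 cells. Chemokines were evenly split, 13 of 27 higher in LSECs and 11 in Hepa1-6 cells. Ccl2, which draws monocytes, was at 762, 577 and 565 CPM in LSECs and 55.8, 61.7 and 60.5 CPM in Hepa1-6 cells, and Cx3cl1, fractalkine, at 0.801, 0.803 and 0.495 CPM in LSECs and 113, 109 and 113 CPM in Hepa1-6 cells. Of 42 tested cytokine receptors 33 were called for LSECs and 7 for Hepa1-6 cells. Against this majority Lifr, the receptor of leukaemia inhibitory factor, was at 33.5, 42.5 and 44.5 CPM in LSECs and 231, 235 and 228 CPM in Hepa1-6 cells. Its partner Il6st was at 283, 572 and 609.6 CPM in LSECs and 83.7, 79.8 and 81.6 CPM in Hepa1-6 cells.

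Transcript usage within genes was tested on the deposited transcript counts with edgeR's diffSpliceDGE. Of 7932 genes with at least 2 expressed transcripts 504 used them differently, or 6.35%. That count was 245 and 259 without LSEC replicate 2 or 3, and 173, 140 and 161 without Hepa1-6 replicate 1, 2 or 3. In a list of 76 genes known for cell-type isoforms 70 were tested and 10 called. Among those called, Fyn and Pecam1 averaged 0.0159 and 0.255 TPM in Hepa1-6 cells, so their usage there rests on few reads. The leading transcript differed between the cells in 95 of 272 called genes with at least 5 TPM in both. Tpm1, which makes muscle and non-muscle tropomyosins by exon choice, was the clearest of the list (edgeR adjusted p = 7.08e-15). Its transcripts NM_001164252 and NM_001164253, both of 1675 bases, held 11.8, 15.3 and 13.2% and 9.24, 16.4 and 9.11% of its TPM in LSECs and 50.3, 50.8 and 53.6% and 42.3, 40.6 and 38.6% in Hepa1-6 cells. The transcripts NM_001164250 and NM_024427 held 37.5, 31.1 and 35.7% and 27.9, 20.8 and 26.2% in LSECs and were at 0 in Hepa1-6 cells. No library of one cell overlapped the other for these transcripts. Exoc1, an exocyst subunit, used NM_001359372 for 64.8, 68.8 and 24.6% of its TPM in LSECs and 0% in Hepa1-6 cells (edgeR adjusted p = 3.28e-05), and LSEC replicate 3 was the low one. Cd44, a hyaluronan receptor with variable exons, had its transcript NM_001039151 at 99.4, 97.6 and 99% in LSECs and 86.8, 80.8 and 79.1% in Hepa1-6 cells (edgeR adjusted p = 0.000148). Over the whole table the largest exchange at 20 TPM or more in both cells was in Ash2l, a subunit of histone methyltransferase complexes. NM_001080793 made up 0, 0.333 and 0.346% of it in LSECs and 88.5, 91.7 and 76.9% in Hepa1-6 cells, and NM_011791 54.5, 87.5 and 84% in LSECs and 0.23, 0.121 and 0.163% in Hepa1-6 cells (edgeR adjusted p = 0.000389). Rasgrp3, a Ras activator, and Frmd4b showed exchanges of the same kind, with NM_001166493 at 61.7, 88.3 and 72.2% of Rasgrp3 in LSECs and 0% in each Hepa1-6 library, and NM_001346639 at 55, 85 and 95.6% of Frmd4b in LSECs and likewise 0%. Shares among long overlapping models rest on the authors' assignment of shared reads. Of 12 genes named by rule, Tpm1, Exoc1, Cd44, Camk2d, Ash2l, Frmd4b and Rasgrp3 stayed called when any 1 library was left out. Where transcripts needed 10 counts in every library, which drops those at 0 in one cell, Tpm1, Exoc1, Camk2d and Ash2l were not called (edgeR adjusted p from 0.437 to 1) and the other 3 could not be fitted.

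**Figure D5:**
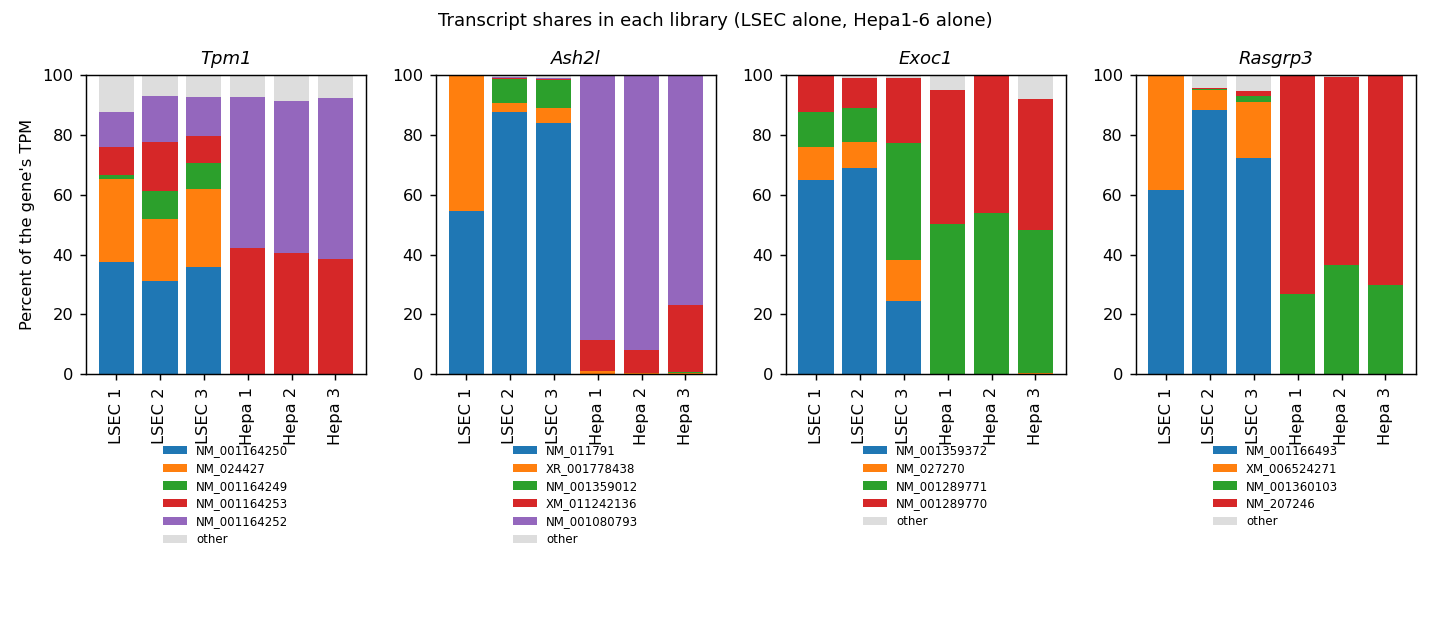
Share of each transcript in the TPM of Tpm1, Ash2l, Exoc1 and Rasgrp3 (percent, stacked bars; grey, all other transcripts), with the 3 libraries of LSECs alone left of the 3 of Hepa1-6 cells alone. In Tpm1, NM_001164252 and NM_001164253 fill most of each Hepa1-6 bar, and NM_001164250 and NM_024427 appear in LSECs only.

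Whether these differences hold in other libraries of the same cells was read from the co-cultures, which share no library with the mono-cultures. LSECs and Hepa1-6 cells differed in 74.0% of 16334 tested genes there. Of 11143 genes called between the mono-cultures and tested in both fits, 10473 (94.0%) were called in the same direction in co-culture, 640 were not called and 30 were called in the opposite direction. Of 5326 4-fold genes 4955 (93.0%) were 4-fold in the same direction. Any effect of co-culture itself is part of this comparison.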

How the data were processed

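TruSeq Stranded mRNA libraries had inserts of 200 to 400 bp and an RNA input of 1 μg, per the labels' protocols; the submitters' processing notes name HISAT2, StringTie and mm10, and no versions. Per the file headers, the authors deposited a table with an estimated count, FPKM and TPM for each gene and transcript. Estimated counts were whole numbers as deposited and entered the tests rounded. FPKM values deposited by the authors were not used. TPM values deposited by the authors served for levels between genes and for transcript shares. The strand setting of the counting is not given in the sources used here.

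Gene counts were filtered with filterByExpr, scaled by TMM and tested with edgeR 4.0.16 (R 4.3.3), quasi-likelihood F-test with robust dispersion and Benjamini-Hochberg adjustment at 0.05, on the 6 mono-culture libraries. Standard errors are the log2 fold change over the root of F. Transcript usage was tested with edgeR's diffSpliceDGE and Simes p-values. DESeq2 1.42.0 and limma 3.58.1 on log2(TPM + 1) were alternatives, as were other scalings and filters, a replicate block and leaving out each library. Same-numbered libraries of the groups deviated with correlations of 0.0095, -0.0382 and 0.0572, and differently numbered ones with -0.0565 to 0.0456. These values did not show that the numbers pair the libraries. With 3 libraries a group and LSEC replicate 1 apart from the others, they cannot exclude it.

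The comparison and the gene lists were chosen with earlier results of these data known. Named genes are, for each cell, the 12 most abundant 4-fold genes, the 6 of largest fold with at least 3 counts in each library of the other cell and 10 CPM in their own, up to 4 called members a direction of each list by CPM, the most abundant member against a list's majority, and 12 genes for transcript usage; others are marked. Data were simulated with 200 genes changed and the rest of the 16411 genes alike in both groups. There the gene test recovered 0% of genes changed 1.5-fold, 26% at 2-fold, 74% at 4-fold and 92% at 8-fold, and 9.43% of its calls were false. In the measured libraries 70.0% of tested genes were called, so these rates do not carry over directly. The transcript test (7932 genes, 200 of them changed) recovered 0% of 4-fold and 74% of 64-fold exchanges at the estimated spread. Of its calls 100% at 4-fold and 15.9% at 64-fold were false. Promoters came from RefSeq (GRCm38.p6). A few genes and 1 gene list are not reported here.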

Additional observations from a re-analysis of the deposited data

Results flagged for a closer look

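Ass1, the urea cycle enzyme argininosuccinate synthase, had a log2 fold change of LSECs over Hepa1-6 cells of 1.55 in mono-culture and -1.95 in co-culture. In mono-culture it was at 24.6, 21.1 and 23.5 CPM in LSECs and 8.62, 7.88 and 7.19 CPM in Hepa1-6 cells. Ptges, a prostaglandin E synthase, had -2.67 in mono-culture and 2.39 in co-culture, and in mono-culture was at 1.19 ± 0.285 CPM in LSECs and 7.56 ± 0.56 CPM in Hepa1-6 cells (mean ± SD, n = 3 each). In both cultures every LSEC library lay on one side of every Hepa1-6 library for these 2 genes, on opposite sides in the 2 cultures. The difference between the cultures was not tested.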

How the results depend on the processing

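The 11487 calls between the mono-cultures ranged from 9862 with a filter of 1 CPM to 14452 without LSEC replicate 1, and stayed within 1.5 times in each alternative run. The 4-fold count of 5632 was 3094 with limma on log2(TPM + 1), a scale that shrinks the change of low genes; in the others it stayed within 1.5 times. The replicate block gave 10631 calls and 5559 4-fold calls, and the numbers were not shown to pair the libraries. The 504 genes of different transcript usage became 1135 by a gene-level F-test and 146 where transcripts needed 10 counts in every library, and 140 to 665 when 1 library was left out, with 140 without Hepa1-6 replicate 2 and 665 without LSEC replicate 1; the cause was not tested. Of 671 called named genes 603 kept their call in every alternative, 68 lost it in at least 1, and 0 reversed. Of 2880 alternative list counts 100 left the 1.5-fold range, and nuclear oxidative phosphorylation, ribosomal protein and proteasome counts are given above without LSEC replicate 1. With 3 libraries a group, 1.5-fold changes were not recovered in simulation.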

Other observations

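Of the 30 genes called in opposite directions in mono-culture and co-culture, several encode secreted proteases or inflammatory proteins; they were chosen after their values were seen. Mmp9, a gelatinase, had a log2 fold change of LSECs over Hepa1-6 cells of -2.42 in mono-culture and 3.76 in co-culture. Mmp13, a collagenase, had -1.52 and 2.36, and Cxcl1, a neutrophil chemokine, -0.87 and 2.88 in the same order. Fosl1, a transcription factor of the AP-1 family, went the other way, at 1.14 in mono-culture and -0.60 in co-culture. The difference between the cultures was not tested for these genes.

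Toll-like receptors were higher in LSECs in 9 of 9 tested cases and C-type lectins in 19 of 21. Macrophage markers moved with them, at 2606 to 3877 CPM summed in LSECs and 16.19 to 18.54 CPM in Hepa1-6 cells, and their part was not tested. Kinesins, the motors of microtubules, were higher in LSECs in 9 of 34 cases and in Hepa1-6 cells in 19, and subunits of the vacuolar proton pump in 16 and 1 of 21 (16 and 2 without LSEC replicate 1). Aldo-keto reductases and aldehyde dehydrogenases were higher in LSECs in 7 of 31 cases and in Hepa1-6 cells in 18. Of 30 tested long noncoding RNAs 10 were higher in LSECs and 6 in Hepa1-6 cells, and 13 and 13 without LSEC replicate 1.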
